A study of Mus musculus with 3 samples.

Results

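The regions described here are 5-methylcytosine (5mC) peaks that stood high in the list of a TAC cardiomyocyte library and had no counterpart in the Sham list. They were selected on 2 values, the place of a peak in the TAC list and its distance to the nearest Sham peak. A TAC peak was taken when it lay in the first 20% of the data rows of its list, on chromosomes 1 to 19, and no Sham peak overlapped it or lay within 1000 bp on either side. That left 1717 of 32189 strong autosomal TAC peaks, out of 162107 TAC peaks in all, and they are called TAC-only strong peaks below. The other 30472 strong TAC peaks, those with a Sham peak within 1000 bp, serve for comparison. "Only" means that no peak was called in Sham near by, not that the Sham DNA was unmethylated there.

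The TAC library came from cardiomyocytes, the contractile cells of the heart, of C57Bl6/J males, 8 weeks old, whose hearts had been under pressure overload for 1 week. The Sham library came from cardiomyocytes of Sham males of the same strain and age. A library of Input DNA, made without antibody, served the authors' peak calling and was otherwise not analysed here. Each group has 1 library, so the differences below have no replicate check, no test was run, and intervals are exact 95% binomial intervals that cover counting error only. The sources used here do not state how many animals went into a library. The TAC library had 14658177 tags and the Sham library 12585289, per the file headers. Peaks carry no expression level, so the cardiomyocyte label was not checked against marker genes.

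In TAC, a constriction of the aorta makes the heart pump against a raised load. In methylated DNA immunoprecipitation, an antibody against 5mC pulls down DNA fragments, and a peak marks a stretch with more fragments than the input. In mammals 5mC lies mostly at CpG dinucleotides. Much of the genome is methylated, gene bodies and gene-poor stretches included, while CpG-rich promoters of active genes are usually free of it.

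Few strong TAC peaks touched a promoter window, TAC-only or not, and the windows at TAC-only ones ranged from CpG-rich to CpG-free sequence. RefSeq promoter windows run from 250 bp before to 50 bp after a promoter start position, on GRCm38.p6, the assembly that mm10 names. That position need not be the outer end of the annotated gene. Of the TAC-only strong peaks 17 (0.990%, interval 0.578 to 1.58) overlapped such a window, against 373 (1.22%, 1.10 to 1.35) of the other strong TAC peaks. These intervals overlap. The CG dinucleotide was searched as the letters CG, which read the same on both strands. The 17 windows held a median of 5 CG (0 to 33), the 438 windows at other strong TAC peaks 6, and all 31396 autosomal windows 7. CG occurred in 14 of the 17 windows (82.4%), in 95.0% of the 438, and in 94.8% of all windows. At least 20 CG were found in 1 of the 17 windows (5.88%), in 13.5% of the 438 and in 27.0% of all windows. With only 17 windows, these shares are imprecise.

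Of the 17 windows 11 belong to protein-coding genes, and 6 of these are printed to show that range, chosen after their values were seen. They are the Pear1 window at chr3:87768904-87769203, minus strand, the Ildr1 window at chr16:36693728-36694027, plus strand, the Cmas window at chr6:142756436-142756735, plus strand, the Usp49 window at chr17:47630440-47630739, plus strand, the Tmem114 window at chr16:8425087-8425386, minus strand, and the Inmt window at chr6:55174941-55175240, minus strand. Each reads 5′ to 3′ along the gene's strand with the promoter start position after the first 250 bases, and capitals mark CG:
Pear1: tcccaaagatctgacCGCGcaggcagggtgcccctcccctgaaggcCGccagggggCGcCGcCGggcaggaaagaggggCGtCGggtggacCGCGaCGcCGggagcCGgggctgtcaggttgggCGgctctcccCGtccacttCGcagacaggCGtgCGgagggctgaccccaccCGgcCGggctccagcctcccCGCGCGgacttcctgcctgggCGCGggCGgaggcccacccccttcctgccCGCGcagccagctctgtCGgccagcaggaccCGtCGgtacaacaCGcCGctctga
Ildr1: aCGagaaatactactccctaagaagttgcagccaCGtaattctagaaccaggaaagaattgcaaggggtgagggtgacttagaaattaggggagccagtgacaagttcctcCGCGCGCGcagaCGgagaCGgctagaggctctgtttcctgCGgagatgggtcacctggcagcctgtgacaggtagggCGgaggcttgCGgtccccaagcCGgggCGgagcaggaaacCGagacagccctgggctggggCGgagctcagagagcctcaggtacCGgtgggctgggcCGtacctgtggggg
Cmas: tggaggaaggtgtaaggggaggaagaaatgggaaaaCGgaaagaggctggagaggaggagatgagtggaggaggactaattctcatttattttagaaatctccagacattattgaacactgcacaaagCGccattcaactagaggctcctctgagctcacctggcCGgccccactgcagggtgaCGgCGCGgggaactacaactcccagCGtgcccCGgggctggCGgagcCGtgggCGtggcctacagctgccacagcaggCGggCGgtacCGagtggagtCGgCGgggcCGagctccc
Usp49: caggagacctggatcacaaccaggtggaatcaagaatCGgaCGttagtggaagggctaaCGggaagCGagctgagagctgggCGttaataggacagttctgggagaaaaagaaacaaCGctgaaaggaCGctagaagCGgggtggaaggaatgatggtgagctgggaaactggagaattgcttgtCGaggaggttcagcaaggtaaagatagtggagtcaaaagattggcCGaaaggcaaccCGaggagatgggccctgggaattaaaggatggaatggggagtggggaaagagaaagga
Tmem114: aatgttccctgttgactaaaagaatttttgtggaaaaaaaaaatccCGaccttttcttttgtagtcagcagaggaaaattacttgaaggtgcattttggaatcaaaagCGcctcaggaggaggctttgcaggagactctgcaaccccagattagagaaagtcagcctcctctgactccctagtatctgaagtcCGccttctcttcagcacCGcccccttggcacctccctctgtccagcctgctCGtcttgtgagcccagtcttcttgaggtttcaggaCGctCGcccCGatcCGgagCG
Inmt: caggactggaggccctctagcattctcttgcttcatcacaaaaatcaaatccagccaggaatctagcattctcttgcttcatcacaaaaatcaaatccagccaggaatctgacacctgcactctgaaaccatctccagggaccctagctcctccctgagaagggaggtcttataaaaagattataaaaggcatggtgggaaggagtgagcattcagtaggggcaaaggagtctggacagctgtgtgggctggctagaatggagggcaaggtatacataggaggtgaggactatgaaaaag

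Pear1 encodes a receptor that platelets and endothelial cells carry. Its window was the only one of the 17 with at least 20 CG, with 33, and the TAC peak (chr3:87767142-87768976) covered 73 bp of it, a part that holds 7 CG. The annotated 5′ end of Pear1, at 87769110, lay inside the window but not at its promoter start position. At Ildr1, which encodes a cell junction protein, and at Cmas, which encodes an enzyme that activates sialic acid, the peaks covered 12 of 17 and 4 of 17 CG. The peak at Usp49, the gene of a deubiquitinating enzyme that acts on histone H2B, covered the whole window with its 11 CG, and the nearest Sham peak was 10308 bp away. At Tmem114, which encodes a transmembrane protein, the peak held 5 of 10 CG. At Inmt, the gene of an amine methyltransferase, 298 of 300 bp lay in the peak, and no CG lies in the window. The window of Trim75, wholly inside a peak, holds 0 CG as well. The peaks at the windows of Dao, the gene of an enzyme that oxidises D-amino acids, of Epgn, the gene of a growth factor, and of Cnfn covered 40, 14 and 62 bp. At Plcd4, a phospholipase C gene, 251 bp were covered. The annotated 5′ end of another gene, Usp37, at chr1:74544286 lay in the same window and under the same peak. The Dao and Plcd4 windows lay inside the annotated genes, which begin at chr5:113999635 and chr1:74541975.

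Which peaks lacked a Sham counterpart depended strongly on their place in the TAC list. The headers do not say how the lists are ordered. Each list runs through blocks, 414 in TAC and 352 in Sham, inside which peaks are sorted by position, and counting 1 tag fewer per block down to 8 tags in the last gives 99.3% of the tags in peaks that each header states. This block value, here named the inferred tag number, puts the limit of the first 20% at 40 tags in TAC and 34 in Sham, although it also puts 5267 TAC and 4420 Sham peaks under the tag thresholds of 12 and 11 in the headers. The TAC-only strong peaks had a median of 46 inferred tags (quartiles 42 and 52), against 61 (48 and 87) in the other strong TAC peaks. Scaled to the Sham tag total, the median of the TAC-only strong peaks is 39.5. These values are those the choice of regions used, and they are given as a description. The step of 1 tag per block is an assumption that was not checked for single peaks. It is least sure for the first rows, where blocks hold few peaks, while the TAC block at the limit holds 1306. There the inferred tag number should be read as a place in the order, since tag numbers that no peak has would be skipped.

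When the strong rows were cut into 20 equal slices in file order, TAC-only peaks made up 4 of 1597 autosomal peaks in the first slice (0.250%) and 226 of 1615 in the last (14.0%). Over all slices they were 1717 of 32189 (5.33%), against 1003 of 26988 strong Sham peaks (3.72%) with no TAC peak within 1000 bp. The Sham share was 0.299% in the first slice and 9.01% in the last.

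**Figure D1:**
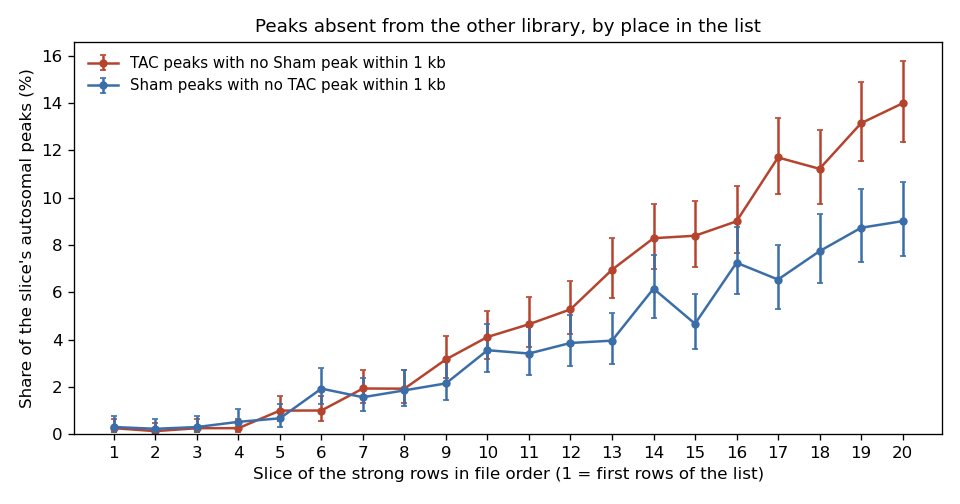
Share (%) of autosomal strong peaks with no peak of the other library within 1 kb, for each of 20 slices of the strong rows in file order (slice 1 holds the first rows), with exact 95% intervals. TAC (red) runs to 14.0% in the last slice and Sham (blue) to 9.01%.

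Most TAC-only strong peaks had a Sham peak in the wider neighbourhood. The median distance to the nearest Sham peak was 6598 bp (quartiles 2979 and 15373), and the longest was 179964 bp. In 8 cases no Sham peak lay within 100 kb, and in 61 the nearest was between 50 and 100 kb away. Near the limit of the rule, 34 TAC-only strong peaks had a Sham peak over 1000 and up to 1100 bp away, such as chr5:112644347-112645673 at 1084 bp. In turn, 30 strong TAC peaks were left out with a Sham peak over 900 and up to 1000 bp away, such as chr6:53433323-53434701 at 979 bp.

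The strongest TAC-only peaks lay on proximal chromosome 17, in the t-complex region, which is known for genes expressed in testis. The first in the list, chr17:13589179-13591883, was row 16 of all TAC peaks with 413 inferred tags and a width of 2705 bp. Its nearest Sham peak was 1749 bp away and the nearest protein-coding gene, Tcte2, 126 kb away. The second, chr17:13654695-13655570, had 346 inferred tags, lay 9101 bp from a Sham peak and was within 1000 bp of the 5′ end of the long non-coding RNA gene Gm41530. Another, chr17:13541926-13542551, with 103 inferred tags, lay in the long non-coding RNA gene 2700054A10Rik. In the 1 Mb window from 13000001 to 14000000 there were 5 TAC-only strong peaks among 20 strong TAC peaks, beside 49 Sham peaks, of which 1 was a strong Sham peak without a TAC peak. One of the 5 (chr17:13220586-13221504) lay within 1000 bp of an end of Smok2a, a protein kinase gene of the t-complex.

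At the proximal end of chromosome 11 both libraries had strong peaks of their own. The TAC peak chr11:3180086-3180711, with 227 inferred tags, was the single TAC peak with its midpoint in Sfi1, a gene for a centrosome protein. Sham had 3 peaks there, chr11:3150256-3150966, chr11:3155666-3156166 and chr11:3193081-3193581, in rows 44, 46 and 18 of its list, and each was without a TAC peak within 1000 bp. Sfi1 overlaps another protein-coding gene. In the first 5 Mb of the autosomes together, 29 of 437 strong TAC peaks (6.64%, interval 4.49 to 9.39) were TAC-only, beside 5.33% over all autosomes. On the Sham side 19 of 349 (5.44%, 3.31 to 8.37) had no TAC peak near, beside 3.72% over all autosomes, and both intervals hold the share over all autosomes.

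Of the next 8 peaks in the list, 4 lay in protein-coding genes and 4 between 7.59 and 120 kb from one. The peak chr7:125586119-125588016 (179 inferred tags) lay 7.59 kb from Il4ra, the gene of an interleukin receptor subunit. The peak chr15:62035095-62036898 (161 tags) lay 45.6 kb from Myc, the gene of a growth-promoting transcription factor, in a 1 Mb window without a protein-coding gene midpoint. Within genes lay chr5:117684836-117686827 in Ksr2, which encodes a scaffold of the Ras to MAP kinase cascade (138 tags), and chr8:127132925-127134330 in Pard3, a cell polarity gene (118 tags). Also within genes lay chr10:13430092-13431678 in Phactr2 (116 tags) and chr5:114220824-114221864 in Acacb (111 tags). Acacb encodes the acetyl-CoA carboxylase that restrains mitochondrial fatty acid uptake in muscle. The peak chr15:86617140-86619036 (116 tags) was 120 kb from Tbc1d22a and chr1:92739976-92741326 (106 tags) was 91.0 kb from Gpc1.

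Width differed little before the place in the list was taken into account. The median width was 777 bp in TAC-only strong peaks (quartiles 628 and 1195) and 770 bp in the other strong TAC peaks (628 and 1093). With the others weighted to the same places in the list, their median was 648 bp. The widest TAC-only strong peak, chr16:30092773-30095928, spanned 3156 bp, 26.6 kb from Hes1, a Notch target gene that encodes a repressor. It was followed by the chromosome 17 peak of 2705 bp and by 2611 bp in Chd9, a chromatin remodeller gene. A peak of 2518 bp lay 2.28 kb from Vmn1r87, a pheromone receptor gene, and one of 2477 bp in Unc79, a gene for a sodium leak channel subunit. Those of 2349 bp, 266 kb from Jarid2, of 2290 bp in the long non-coding RNA gene Gm41549, and of 2239 bp in Ascc1 completed the 8 widest.

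Gene density set TAC-only strong peaks apart from the other strong TAC peaks. They lay outside genes more often and in gene-poor windows more often. Of the TAC-only strong peaks 46.1% (43.7 to 48.5) lay in an annotated gene by midpoint, against 55.1% (54.5 to 55.6) of the others, or 54.5% with the others weighted to the same places in the list. In protein-coding genes the shares were 37.6% and 45.1%, and in long non-coding RNA genes alone 7.75% and 9.25%. Of the 1071 TAC-only strong peaks outside protein-coding genes, 42.7% were over 100 kb from one and 11.9% over 500 kb, against 31.0% and 4.70% of 16716 others. The median distances were 72.3 kb and 43.5 kb.

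Counted per 1 Mb window, the median number of protein-coding genes was 6 around TAC-only strong peaks, 8 around the others, and 7 with weighting to the place in the list. In windows without a gene 155 of 1493 strong TAC peaks (10.4%, interval 8.88 to 12.04) were TAC-only. The share was 8.38% with 1 to 2 genes, 5.16% with 3 to 5, 4.73% with 6 to 10, 3.98% with 11 to 20 and 4.16% (3.56 to 4.83) with 21 or more. The share in windows with at most 2 genes was 2.20 times (1.93 to 2.49) that in windows with more than 10, and 1.87 times within slices of the list. With no Sham peak allowed within 10000 bp it was 4.74 times (4.58% against 0.967%). A longer distance removes more peaks where Sham peaks lie closer together, so this value is not independent of their spacing. The gene-poor windows had the higher share on 18 of 19 autosomes, chromosome 17 being the exception (3.30% against 3.82%). The difference was mostly among the lower-placed strong peaks. In the later 10 slices 16.4% of strong TAC peaks in gene-free windows and 7.27% in windows with 21 or more genes were TAC-only, and in the earlier 10 slices 1.65% and 1.24%.

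The Sham side ran the other way. Strong Sham peaks without a TAC peak near made up 1.43% (0.716 to 2.54) of strong Sham peaks in windows without a gene, 11 of 769, and 5.16% (4.48 to 5.91) in windows with 21 or more genes. The ratio of windows with at most 2 genes to those with more than 10 was 0.545 (0.432 to 0.682). Of these Sham peaks 72.6% (69.7 to 75.3) lay in genes. Both sides come from the same pair of lists, so they are not separate evidence. Sham peaks were sparser around TAC-only strong peaks, with a median of 5 within 50 kb against 10 around the other strong TAC peaks. The rule itself asks for Sham peaks to be missing near by, so this count is not independent of it, and its part in the difference by gene density was not tested. The strong peaks of the 2 lists as a whole also differed by gene density. Windows without a gene held 1493 strong TAC and 769 strong Sham peaks, and those with 1 to 2 genes 4464 and 2900. Windows with 21 or more genes held 3919 and 3855. The part of this in the shares on either side was not tested.

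**Figure D2:**
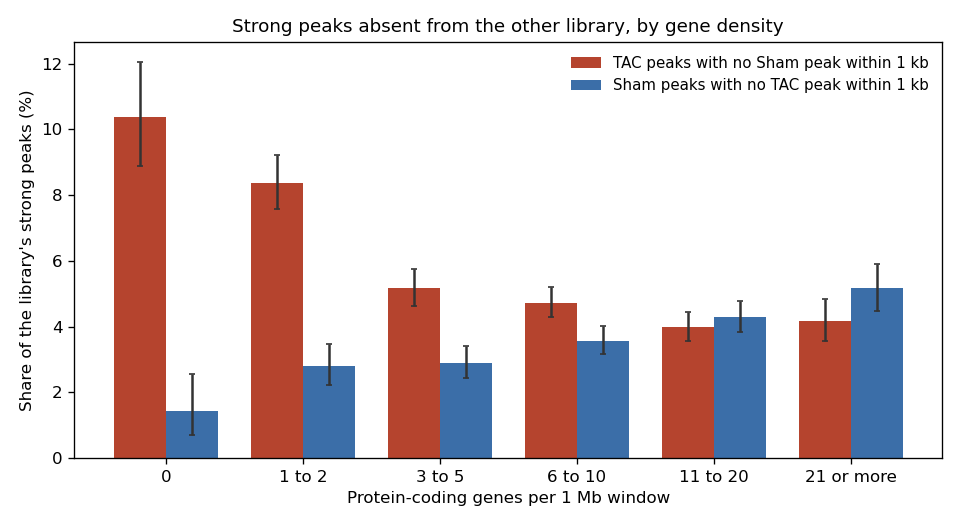
Share (%) of strong peaks with no peak of the other library within 1 kb, by the number of protein-coding genes in the 1 Mb window, for TAC (red) and Sham (blue), with exact 95% intervals. TAC is at 10.4% and Sham at 1.43% in windows without a gene, and they are at 4.16% and 5.16% in windows with 21 or more genes.

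Autosomes differed less than windows did. TAC-only peaks made up between 3.92% of strong TAC peaks on chromosome 17 (58 of 1481, interval 2.99 to 5.03) and 6.74% on chromosome 6 (118 of 1752, 5.61 to 8.01). Chromosome 7 (6.30%), chromosome 16 (6.10%) and chromosome 19 (6.02%) followed chromosome 6. The intervals of 17 autosomes held the share over all autosomes, 5.33%, and those of chromosomes 6 and 17 did not.

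**Figure D3:**
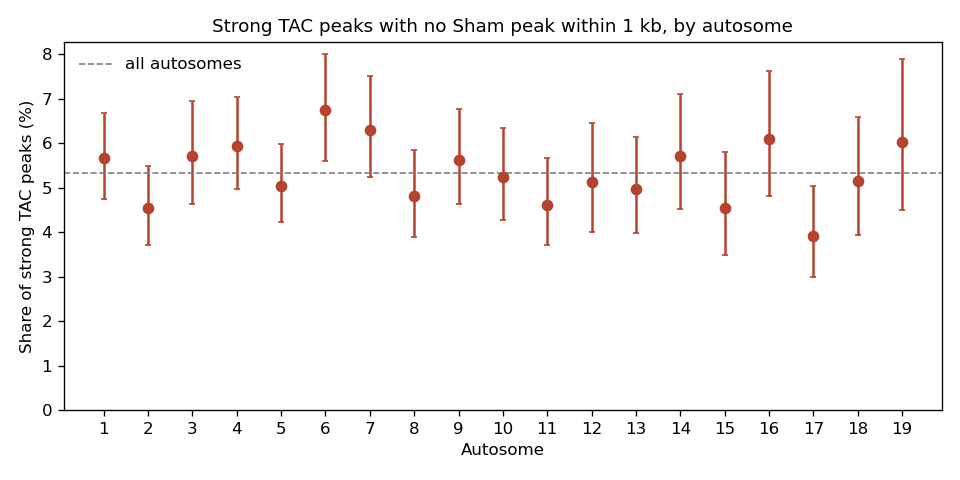
Share (%) of strong TAC peaks on each autosome with no Sham peak within 1 kb, with exact 95% intervals, and the share over all autosomes (dashed). Chromosome 6 is highest at 6.74% and chromosome 17 lowest at 3.92%.

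Most TAC-only strong peaks stood alone, with a modest tendency to lie next to each other. With midpoints joined at up to 100 kb, 1422 stood alone, 130 pairs, 9 groups of 3 and 2 groups of 4 were formed, and 17.2% (15.4 to 19.05) had another within reach. Of the strong TAC peaks directly beside a TAC-only strong peak, 8.45% (290 of 3431, 7.54 to 9.43) were TAC-only as well, against 5.16% (4.98 to 5.34) of those beside another strong TAC peak. The ratio of these shares is 1.64, and 3.96 with no Sham peak allowed within 10000 bp. Adjacent peaks can lie in the same stretch without Sham peaks, so the ratio is not independent of the distance set. Each adjacent pair is counted from both of its peaks, so the intervals are too narrow. With gene density held in classes, the shares were 10.8% and 8.60% in windows with at most 2 genes, 8.71% and 4.71% with 3 to 10, and 5.39% and 4.03% with more than 10. In the class with at most 2 genes and in that with more than 10, the 2 intervals overlapped.

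**Figure D4:**
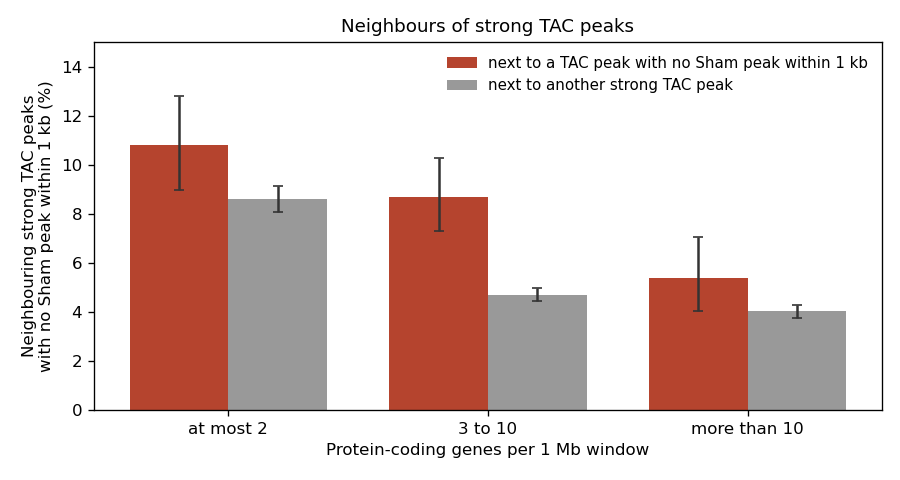
Share (%) of strong TAC peaks with no Sham peak within 1 kb, among those directly beside such a peak (red) and those directly beside another strong TAC peak (grey), in 3 classes of gene density, with exact 95% intervals. The widest gap, 8.71% against 4.71%, is in windows with 3 to 10 genes.

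Weaker TAC peaks, those outside the first 20% of rows, lacked a Sham peak about as often near TAC-only strong peaks as over all autosomes. Within 50 kb of a TAC-only strong peak 47.7% of weaker TAC peaks had no Sham peak within 1000 bp, against 49.0% of all 127115 weaker autosomal TAC peaks. Within 50 kb of the other strong TAC peaks, each of which has a Sham peak near by the rule, the share was 37.1%. A weaker peak near several strong ones is counted for each.

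The largest groups were in unlike surroundings. On chromosome 16 (84795969 to 84915102) the strong TAC peaks numbered 4, all TAC-only, and the span of 119134 bp held 7 TAC peaks and 1 Sham peak. Of the 4 peaks, 2 lay in Jam2, which encodes a junction adhesion molecule of endothelial cells, and the others 33.4 kb from Gabpa, a transcription factor gene, and 37.9 kb from App, the amyloid precursor gene. Over its whole length Jam2 held 3 TAC and 0 Sham peaks. On chromosome 2 (170581390 to 170836428) the 4 TAC-only peaks were among 18 strong TAC peaks in 255039 bp with 41 TAC and 40 Sham peaks, and 2 of the 4 lay in Dok5, an adaptor gene of insulin receptor signalling. The tightest group of 3 spanned 23004 bp within Chd9 on chromosome 8 (90843035 to 90866038). Every strong TAC peak in this span was TAC-only, while over the whole gene it was 3 of 5. Groups of 3 also lay at Gprc5a and Gprc5d, orphan receptor genes on chromosome 6 (135055206 to 135114259), and on chromosome 4 (125896249 to 125955674) beside and within the long non-coding RNA gene 2610028E06Rik. By fixed 1 Mb windows, the most crowded held 6 TAC-only strong peaks, on chromosome 5 from 128000001 to 129000000, with the midpoints of Tmem132d, Fzd10, Piwil1, Rimbp2 and Stx2. They were among 20 strong TAC peaks there, with 93 TAC and 58 Sham peaks in all. This window was picked for its count of TAC-only strong peaks.

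Among protein-coding genes, 582 of 20661 (2.82%) held a TAC-only strong peak by midpoint, and of the 5838 genes with any strong TAC peak these are 9.97%. A single such peak was held by 529 genes, 2 by 43, 3 by 5, 4 by 4, and 5 by 1. The median length was 123 kb in genes that held one, 55.4 kb in genes with any strong TAC peak and 17.5 kb over all protein-coding genes. Where the host gene was over 500 kb long, 7.36% (6.20 to 8.65) of its strong TAC peaks were TAC-only. In host genes of up to 50 kb, 50 to 200 kb and 200 to 500 kb the shares were 3.98%, 4.09% and 4.12%. Within windows of 3 to 10 genes the share was 6.01% (4.33 to 8.09) in genes over 500 kb. In genes of 200 to 500 kb it was 4.14% (3.34 to 5.07), so the intervals overlap there. Windows with at most 2 genes held 1104 of the 1835 strong TAC peaks in genes over 500 kb. Of these 8.15% (6.61 to 9.93) were TAC-only. The shares there were 7.83% (4.63 to 12.2) at 50 to 200 kb and 6.07% (3.96 to 8.83) at 200 to 500 kb. These intervals overlap, and up to 50 kb it was 2 of 43. With more than 10 genes the shares were 7.69% (5 of 65) over 500 kb and 3.02% at 200 to 500 kb. The part of gene density in the difference by length was not tested.

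The genes with the most TAC-only strong peaks were long, with a median length of 652 kb over 12 genes (226 to 1973 kb). Rbfox1, an RNA splicing regulator of neurons and muscle (chr16:5884793-7412480), held 5 among 51 strong TAC peaks, with 174 TAC and 133 Sham peaks in all. They lay between 1109 and 30680 bp from the nearest Sham peak and had 41 to 47 inferred tags. Gpc5, a glypican gene, held 4 of 16 strong TAC peaks, with 66 TAC and 39 Sham peaks, and one of the 4 was 50912 bp from a Sham peak. Dlg2, a synaptic scaffold gene, held 4 of 13. Cdh13, the gene of a cadherin present on endothelial cells and cardiomyocytes, held 4 of 53, and Lhfpl3 held 4 of 12.

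Among genes with 3, Esrrg encodes the oestrogen-related receptor gamma, a regulator of oxidative metabolism in heart. It held 3 among 13 strong TAC peaks, and the strongest, chr1:187960706-187961331, had 80 inferred tags. Chd9 held 3 of 5, Slc35f1 3 of 6, Arhgap24, the gene of a Rac inhibitor, 3 of 17, and Myo16, an unconventional myosin gene, 3 of 17. Of the 43 genes with 2, the pair whose first peak stood earliest in the list was taken. Pard3 held 2 of 12 and Rbms3, the gene of an RNA-binding protein, 2 of 54, the pair in Rbms3 lying side by side at chr9:117257717-117258343 and chr9:117258881-117259663. The 12 genes held 40 TAC-only strong peaks among 269 strong TAC peaks, and 923 TAC and 729 Sham peaks in all. They were picked for their number of TAC-only strong peaks, so this proportion is a description.

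**Figure D5:**
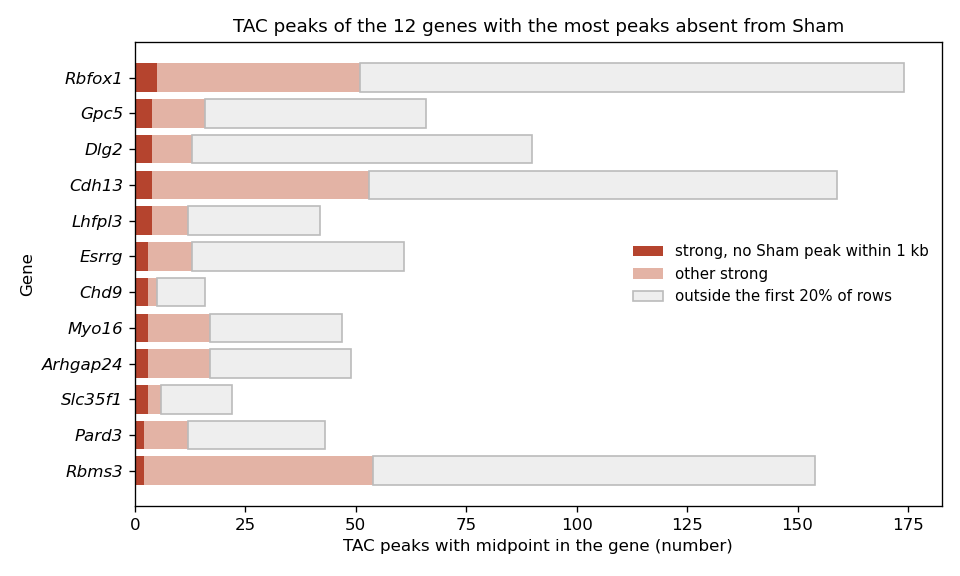
Number of TAC peaks with their midpoint in each of the 10 genes with at least 3 TAC-only strong peaks and 2 of the 43 genes with 2 (Pard3 and Rbms3, earliest in file order), split into TAC-only strong (dark red), other strong (light red) and outside the first 20% of rows (grey). Rbfox1 has 5 TAC-only among 51 strong and 174 TAC peaks, and Chd9 has 3 among 5 and 16.

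Most gene lists held few TAC-only strong peaks. Shares below are of the strong TAC peaks inside a list's genes, beside 5.33% over all autosomal strong TAC peaks and 4.49% of those in protein-coding genes. No list was tested, and strong peaks within one gene are not independent, so the intervals are too narrow. In cardiac transcription factors 7 of 74 (9.46%, interval 3.89 to 18.5) were TAC-only, in 4 of 33 genes. Besides Esrrg these were Hdac9, a class IIa histone deacetylase gene (2 peaks), Nfatc2, a calcineurin-responsive factor, and Zfpm2, a GATA cofactor. In fatty acid oxidation and energy regulator genes it was 3 of 27 (11.1%, 2.35 to 29.2). They were Acacb, Ppara, the gene of the nuclear receptor of fatty acid oxidation (chr15:85737623-85738784), and Ppargc1a, the coactivator of mitochondrial genes (chr5:51649137-51649999).

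Hypertrophic signalling genes had 10 of 164 (6.10%, 2.96 to 10.9) in 9 of 45 genes. The strongest was chr19:60924511-60925264 in Grk5, a kinase of G protein-coupled receptors, with 102 inferred tags, and Grk2, its relative, had 1 of 1 (chr19:4286905-4287680). Nrg1, the neuregulin gene, had 2 of 5, and Prkce, Pde3a and Akap13 1 each. The potassium channel genes Kcnd2 and Kcnq1 held 1 of 3 each. Among sarcomere and Z-disc genes it was 1 of 22, chr5:122099514-122100014 in Myl2, the gene of the ventricular regulatory light chain. In the 27 genes of the calcium handling list 0 of 95 strong TAC peaks were TAC-only, which allows a share of up to 3.16%. This holds for the list only, since the ryanodine receptor gene Ryr3, outside it, held 1 of 4. For fetal and load-induced genes it was 0 of 7 and for DNA methylation machinery 0 of 8, which allow up to 42.9% and 37.5%.

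Among markers of other heart cells, endothelial genes held 3 of 44 (6.82%), in Flt1, Mecom and Ptprb, smooth muscle and pericyte genes 1 of 41, in Myh11, and immune cell genes 1 of 25, in Runx1. Fibroblast and matrix genes held 0 of 26, which allows up to 11.5%. Imprinted genes held 0 of 27 and germline genes 0 of 19, which allow up to 11.1% and 15.8%. Of housekeeping genes Reep5 held 1, its single TAC peak, with 0 Sham peaks in the gene. Synaptic adhesion and scaffold genes, which are long, held 45 of 529 (8.51%, 6.27 to 11.2) in 25 of 56 genes, such as Dlg2, Grid1, Cntnap5a, Pcdh15, Cntnap5b and Dpp6. The share in all host genes over 500 kb, 7.36%, lies inside that interval.

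By gene family, taken from the start of the gene symbol, ionotropic glutamate receptor genes held 8 of 80 strong TAC peaks (10%), potassium channel genes 7 of 146 (4.79%), solute carrier genes 18 of 325 (5.54%), cadherin and cadherin-related genes 7 of 139 (5.04%), protocadherin genes 2 of 84 (2.38%), collagen genes 3 of 104 (2.88%) and zinc finger protein genes 9 of 192 (4.69%). Olfactory receptor genes, 1104 in number, held 0 of 5 and serpin genes 0 of 12, which allow up to 60% and 25%, and Hox genes held 0 of 1. Cytochrome P450 genes held 3 of 30, type 2 vomeronasal receptor genes 2 of 6, type 1 vomeronasal receptor genes 0 of 2 and GABA-A receptor genes 2 of 10.

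A small part lay at gene ends. Of the TAC-only strong peaks 132 (7.69%, interval 6.47 to 9.05) overlapped the 1000 bp on either side of an annotated gene start or end, against 9.72% (9.39 to 10.1) of the other strong TAC peaks. For protein-coding genes the shares were 3.38% (2.57 to 4.35) and 3.87% (3.66 to 4.10), and their intervals overlap. The protein-coding genes numbered 60, with 31 at the 5′ end, 17 at the 3′ end and 13 whose strand was not in the promoter table, a gene with peaks at both ends counting for each. The first 10 genes in file order were Gm41530, Smok2a, 4921509C19Rik, Gm14150, Gm20040, Gm41070, LOC100504180, Klk1b2-ps, Usp49 and Cd300ld. Pseudogenes (Gm14150, Gm20040 and Klk1b2-ps) and long non-coding RNA genes (Gm41530 and Gm41070) were among them. Cd300ld, a myeloid cell receptor gene, had chr11:114990698-114991600 within 1000 bp of its 5′ end, 8019 bp from the nearest Sham peak.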

How the data were processed

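MeDIP-seq peaks of 1 TAC and 1 Sham library were used. The submitters' processing notes name BWA 0.7.4-r385, HOMER 4.5 and Picard, and the mm10 build. HOMER called broad regions in each library against a shared input, with 500 bp peaks stitched over 1000 bp, per the file headers. The files the authors deposited hold start and end positions in bp and no signal per peak, and their score column is 1 in every row. Peaks from different calling depths are compared, so a missing peak can be a signal under the threshold.

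Distances are bases between peak edges, rows of all chromosomes were ranked, and peaks were placed by midpoint in RefSeq genes of GRCm38.p6. These give no strand, exons or introns, and the promoter table gives strand for part of the genes. Windows count gene midpoints per 1 Mb. Python 3.11.15, pandas 2.3.3 and scipy 1.17.1 were used, and the distance search was tested on simulated peaks. Intervals are Clopper-Pearson, and the upper limit for a count of 0 is 3 counts of the total.

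The regions, the 16 gene lists, the 14 families and the rule for named items were chosen with earlier results of these data known. Named items are the 12 regions first in file order, the 8 widest, the 5 largest groups, the 12 genes with the most (ties by file order), up to 6 genes per list and the first 10 at gene ends. Other examples were chosen after their values were seen. The result of the ion channel list as a whole is not reported here.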

Additional observations from a re-analysis of the deposited data

How the results depend on the processing

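No paired analysis was possible because each group has 1 library, and no library could be left out. The share of strong TAC peaks that were TAC-only was 1.40% with the first 10% of rows taken as strong, 10.3% with the first 30% and 4.98% with complete blocks of the order. It was 5.86% when only overlap with a Sham peak was barred, and 5.74%, 3.14% and 1.98% at distances of 500, 5000 and 10000 bp. On the Sham side it was 1.30% with the first 10%, 6.79% with the first 30%, and 4.88% with as many Sham rows as strong TAC rows.

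The share in genes stayed lower than in the other strong TAC peaks under the 10 alternatives tried. The difference was -5.47 percentage points with the first 10% of rows, and was -11.7 and -14.4 at 5000 and 10000 bp. The ratio of gene-poor to gene-rich windows stayed above 1 under the 11 alternatives tried. It was 1.62 with the first 10%, 3.25 and 4.74 at 5000 and 10000 bp, 1.83 in 500 kb windows and 1.87 within slices of the list. The share with another within reach was 4.0% with the first 10%, 36.0% with the first 30%, 9.01% and 6.91% at 5000 and 10000 bp, and 9.96% and 55.2% with joining at 50 and 500 kb, as fewer or more peaks and a shorter or longer reach imply. The ratio of neighbour shares was 1.28, 2.23 and 3.96 with the first 10% and at 5000 and 10000 bp. All values at these 2 distances also depend on the spacing of Sham peaks, as the rule does. The difference in median width (TAC-only minus others) of 7 bp was 129 bp with weighting to the place in the list and 147 bp with the first 10%, and it reversed to -120 bp with the first 30%. The cause was not tested. Peaks at gene ends numbered 85 at 500 bp and 212 at 2000 bp. Precision is limited by 1 library per group.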

Other observations

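Outside the autosomes, 8 of 205 strong TAC peaks on chromosome X (3.90%, interval 1.70 to 7.54) and 3 of 27 on chromosome Y had no Sham peak within 1000 bp. On the Sham side 3 of 177 (1.69%, 0.351 to 4.87) on chromosome X and 1 of 12 on chromosome Y had no TAC peak near, and the intervals of chromosome X overlap.

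Of the TAC-only strong peaks 131 (7.63%) lay within 100 kb of a strong Sham peak without a TAC peak, against 15.2% of the other strong TAC peaks. Of those Sham peaks 133 (13.3%) lay within 100 kb of a TAC-only strong peak, against 15.6% of the other strong Sham peaks. Of the 582 genes that held a TAC-only strong peak, 53 also held such a Sham peak. The share over other genes is not given here and the 582 genes are long, so this number is only a description. No TAC-only strong peak overlapped a RefSeq miRNA hairpin, and the count for the other strong TAC peaks is not given here. The nearest were Mir7073 on chromosome 8, 205 bp from a peak, and Mir7689 on chromosome 5, 943 bp away.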
